A study of Homo sapiens with 18 samples.

Results

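The SWI/SNF complex, also called BAF, is built from alternative subunits, and the transcripts of 31 human genes that encode them were followed in OVCAR-3 cells after BET inhibition. The 31 genes were listed by name as subunits rather than by a rule on measured values, although with earlier results of these data known, and all 31 were found by their Ensembl identifiers among the 58825 genes of the deposited count tables. OVCAR-3 is an established cell line of high-grade serous ovarian cancer. Cells in stripped RPMI medium received 1 µM i-BET858, 1 µM i-BET151 or the vehicle DMSO for 4 or 24 h, which gave 6 groups of 3 biological replicates and 18 poly-A RNA-seq libraries. Both drugs block the acetyl-lysine pockets of the BET proteins, and i-BET858 is described by the study as the bivalent compound. All groups are the same single cell line, no group carries a genetic change made for the study, and each drug was used at 1 dose.

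SWI/SNF complexes use the energy of ATP to slide or evict nucleosomes, which opens promoters and enhancers. They exist in 3 forms. Canonical BAF holds an ARID1 subunit and a DPF subunit. PBAF holds ARID2, PBRM1, BRD7 and PHF10. Non-canonical BAF is the smallest form and holds BRD9 with BICRA or BICRAL, and it lacks SMARCB1 and SMARCE1. An ATPase (SMARCA4 or SMARCA2), actin and actin-like proteins, SMARCC1, a SMARCD protein and BCL7 proteins are common to the forms. The alternatives SMARCD1, SMARCD2 and SMARCD3 were grouped together here, whether or not each enters every form. Several subunits carry bromodomains (SMARCA4, SMARCA2, PBRM1, BRD7 and BRD9), the same kind of module that the BET inhibitors occupy in BET proteins. The study describes i-BET858 as highly selective for BET proteins over other bromodomains, naming BRD7 and BRD9. Genes for ARID1A and other subunits are often mutated in cancer, among them ovarian clear cell carcinoma.

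Library totals lay between 27323969 and 46299994 counts with a median of 32267434, so that 3 counts, taken here as the limit for a gene without a count, corresponded to 0.0648 to 0.110 CPM (library-scaled counts per 1e6). That limit covers counting error only. The libraries of replicate 3 stood apart: 17817 to 20642 genes had a count in them, against 23674 to 24947 in replicates 1 and 2. Calls that change without replicate 3 are therefore given both ways. Of 9 markers of the line's tissue of origin, PAX8, WT1, MUC16, EPCAM, KRT7, KRT8, KRT18 and MSLN were present in every library, and ESR1 lay between 0 and 1.08 CPM. The sum of the 9 moved with treatment. At 4 h it was 8263 to 9746 CPM under DMSO, 11028 to 11674 under i-BET858 and 9342 to 9888 under i-BET151. At 24 h it was 8380 to 9894, 6209 to 6749 and 6313 to 6925 CPM in the same order. The separate marker lists of leukocytes, endothelium and neurons each summed to at most 5.37 CPM in any library, and the fibroblast list reached 50.8 CPM, of which COL1A1 accounted for 21.1 to 46.6 CPM. HEXIM1, a gene that BET inhibitors induce, had 186 ± 21.4 CPM (mean ± SD, n = 3) under DMSO at 4 h, 679 ± 58.7 CPM under i-BET858 and 445 ± 27.9 CPM under i-BET151. In bulk RNA, fewer cells with a transcript and less of it per cell cannot be told apart.

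In DMSO-treated cells at 4 h the members covered a wide range of levels. Scaled to exon length (TPM, mean ± SD, n = 3), ACTB, which encodes the cytoskeletal β-actin, stood highest at 4266 ± 765 TPM. SMARCC1, a scaffold of all forms, followed at 195 ± 22.8 TPM, then SMARCD2 at 147 ± 8.52 TPM, ACTL6A at 119 ± 8.95 TPM and SMARCD1 at 111 ± 3.88 TPM. ACTL6A and SMARCD1 differed by less than the SD of ACTL6A. This order depends on the length used: with the canonical transcript length, added after seeing the data, SMARCD2 stood at 193 ± 9.81 TPM, above ACTL6A at 129 ± 8.84 TPM and SMARCC1 at 129 ± 15.2 TPM. The ATPase gene SMARCA4 had 47.4 ± 4.15 TPM and its alternative SMARCA2 had 10.7 ± 1.1 TPM. Among the subunits that define a form, ARID1A had 41.2 ± 6.95 TPM, PBRM1 38.8 ± 1.44 TPM, BRD9 29 ± 0.657 TPM, ARID2 16.9 ± 1.63 TPM, BICRAL 10 ± 1.99 TPM and BICRA 7.64 ± 2.19 TPM. The members at the bottom were DPF3 at 0.0302 ± 0.022 TPM, BCL11B with 0, 1 and 0 counts (0 to 9 over all 18 libraries), and ACTL6B. ACTL6B, the neuronal alternative to ACTL6A, had 1 count in 1 of 18 libraries. BCL11B and ACTL6B were too low to be tested, which left 29 members. SMARCE1 had only 34 to 130 counts per library, and 3487 of its exon bases are shared with another gene model on the same strand, so its level is uncertain, like that of ACTB, which has many near-identical pseudogene copies.

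After 4 h under i-BET858, 12 of the 29 tested members changed (adjusted p under 0.05 in edgeR's quasi-likelihood test): 9 were lower and 3 were higher than under DMSO. The largest falls were those of ARID2, BICRA, BICRAL, BCL7A and ARID1A, all past 2-fold, and the rises were those of DPF3, SMARCA2 and SMARCD3. Among all 17192 genes tested 30.8% changed (16.3% lower, 14.5% higher), against 12 of 29 members. The members' median log2 fold change was -0.35, against 0.02 for all genes. After 4 h under i-BET151, 7 members changed (6 lower, 1 higher), with a background of 16.2% (8.43% lower, 7.81% higher), a median of -0.08 and an all-gene median of 0.01. At 24 h 16 members changed under i-BET858 (12 lower, 4 higher, against 21.3% and 20.5% of all genes, 41.7% together) and 7 under i-BET151 (3 lower, 4 higher, against 16.6% and 17.2%, 33.8% together). Changes of at least 2-fold were fewer: 6 and 3 members at 4 h under i-BET858 and i-BET151 (backgrounds 14.1% and 7.1%), and 2 and 3 at 24 h (18.8% and 13.7%). Counted without a test, the treated and DMSO libraries did not overlap for 19 members under i-BET858 and 10 under i-BET151 at 4 h (44.6% and 36.7% of all genes). The same counts were 18 and 11 at 24 h (55.1% and 48.9%). Same-numbered libraries deviated together, although matching of replicates 1 and 2 by number was not shown. With the replicate number as a block 20 members passed under i-BET858 and 12 under i-BET151 at 4 h (backgrounds 45.4% and 32.7%). At 24 h the block gave 20 and 10 members (52% and 45.9%). Without replicate 3 the counts were 17 and 8 at 4 h (41.9% and 25.9%) and 20 and 18 at 24 h (60.7% and 54.2%). The 11 members added for i-BET151 at 24 h were SMARCC1, SMARCB1, SMARCE1, ARID1A, ARID1B, ARID2, BCL7C and BCL11A, all lower, and SMARCD3, DPF2 and SS18L1, all higher (edgeR adjusted p from 0.000113 to 0.044). At 4 h leaving out replicate 3 added SMARCC1, SMARCC2, ARID1B, DPF2, PBRM1 and BRD7 (lower) and ACTB (higher) for i-BET858 and ARID1B and BICRA (lower) for i-BET151, and at 24 h for i-BET858 SMARCA4 and DPF1 (lower) and DPF2 and SS18 (higher). The i-BET151 counts also moved with single libraries. At 4 h 4 members passed without DMSO replicate 2, DMSO replicate 3 or i-BET151 replicate 1, where 10.4%, 10.9% and 9.6% of all genes did. At 24 h 4 passed without i-BET151 replicate 2 or i-BET858 replicate 1, where 23.8% and 29.4% of all genes did.

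**Figure D1:**
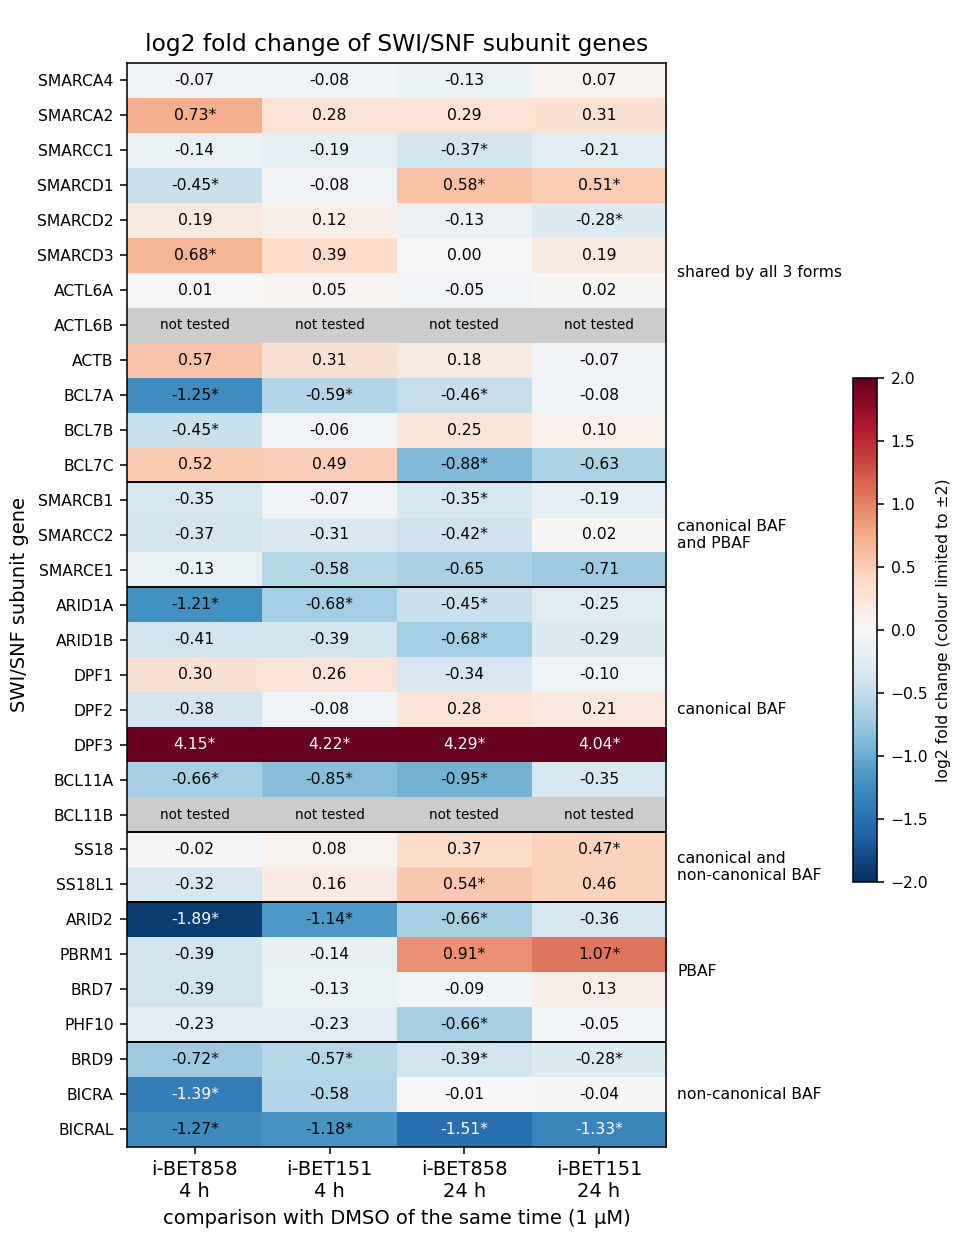
The log2 fold change of each member (rows, grouped by the form of the complex) against DMSO of the same time (columns), from edgeR fits of 9 libraries per time point. Blue is lower and red higher, an asterisk marks an adjusted p under 0.05, and grey marks ACTL6B and BCL11B, which were not tested. All 3 subunits of non-canonical BAF are marked lower under i-BET858 at 4 h, PBRM1 is marked higher at 24 h only, and DPF3 is marked higher in all 4 columns.

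By form, for which the share of all genes called was 30.8% and 16.2% at 4 h (i-BET858, i-BET151) and 41.7% and 33.8% at 24 h, all 3 subunits of non-canonical BAF fell under i-BET858 at 4 h (median log2 fold change -1.27), and 2 of 3 fell in each of the other comparisons, with medians of -0.58 for i-BET151 at 4 h, -0.39 for i-BET858 at 24 h and -0.28 for i-BET151 at 24 h. Of the 4 PBAF subunits, 1 fell at 4 h with each drug. At 24 h 2 fell and 1 rose under i-BET858, and 1 rose under i-BET151. Of the 6 tested canonical BAF subunits, 2 fell and 1 rose at 4 h with each drug, 3 fell and 1 rose under i-BET858 at 24 h, and 1 rose under i-BET151 at 24 h. That rise was DPF3 each time. DPF3 was near the limit of detection under DMSO and met the filter on low counts only through its treated libraries. The 11 tested subunits grouped as common to all forms, the SMARCD alternatives among them, had medians near 0, from -0.05 to 0.05. For i-BET858 3 were lower (SMARCD1 among them) and 2 higher (SMARCA2 and SMARCD3) at 4 h, and 3 lower and 1 higher (SMARCD1) at 24 h. For i-BET151 1 was lower and 0 higher at 4 h, and 1 lower (SMARCD2) and 1 higher (SMARCD1) at 24 h. Of SMARCB1, SMARCC2 and SMARCE1, which canonical BAF and PBAF share, 0 passed at 4 h in edgeR's test. At an unadjusted p under 0.05 there were 2 for i-BET858 and 0 for i-BET151 (40.4% and 29.5% of all genes), with the replicate block 2 and 1 passed (45.4% and 32.7%), and DESeq2 called 0 (35.3% and 21.1%). At 24 h SMARCB1 and SMARCC2 fell under i-BET858. These groups hold 2 to 11 tested genes each, and differences between them were not tested.

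Among the subunits that set PBAF apart, ARID2 had the largest fall of any member under i-BET858 at 4 h, and PBRM1 rose at 24 h under both drugs. ARID2 (ENSG00000189079, chr12:45729706-45908040), the DNA-binding subunit of PBAF, had 44.8, 51.5 and 55.5 CPM in replicates 1, 2 and 3 of DMSO at 4 h (libraries are given in this order throughout, and positions are GRCh38), 10.5, 13.6 and 16.6 CPM under i-BET858 and 19, 18.1 and 31.6 CPM under i-BET151. The highest library of either drug lay below the lowest DMSO library. ARID2 fell by 1.89 ± 0.24 (log2 fold change ± SE, n = 3 against 3) under i-BET858 (edgeR adjusted p = 0.000141) and by 1.14 ± 0.23 under i-BET151 (edgeR adjusted p = 0.00668). At 24 h its libraries had 44.5, 44 and 33.3 CPM under DMSO, 28.6, 22.2 and 28.5 CPM under i-BET858 and 28.3, 32.1 and 36.1 CPM under i-BET151. The DMSO libraries were spread, and replicate 3 was the lowest of them and the highest under i-BET151. The fall under i-BET858 was still 0.66 ± 0.15 (edgeR adjusted p = 0.0053). With i-BET151 the log2 difference was -0.36 (edgeR adjusted p = 0.0953), and without replicate 3 it was -0.59 with an edgeR adjusted p = 0.00125.

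PBRM1 (ENSG00000163939, chr3:52545352-52685917), the polybromo subunit with many bromodomains, had 87.4, 91.2 and 91.4 CPM under DMSO at 4 h, 60.2, 60.2 and 84.4 CPM under i-BET858 and 74.5, 69.7 and 101 CPM under i-BET151, a log2 difference of -0.39 for i-BET858 that did not pass (edgeR adjusted p = 0.111) unless the replicate block was used (edgeR adjusted p = 0.00565) or replicate 3 was left out (edgeR adjusted p = 0.00247). After 24 h the libraries had 71.9, 71.4 and 58.7 CPM under DMSO, 142, 114 and 134 CPM under i-BET858 and 128, 155 and 148 CPM under i-BET151, so that all treated libraries lay above all DMSO libraries. PBRM1 rose by 0.91 ± 0.12 under i-BET858 (edgeR adjusted p = 0.000165) and by 1.07 ± 0.12, or 2.11-fold, under i-BET151 (edgeR adjusted p = 9.54e-05). No alternative fit removed either call, although the rise under i-BET858 lay under 2-fold.

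The remaining PBAF subunits are BRD7 and PHF10. BRD7 (ENSG00000166164, chr16:50313487-50368988), a bromodomain subunit, had 51.4, 60.2 and 47 CPM under DMSO at 4 h, 42.2, 38.4 and 39.8 CPM under i-BET858 and 47.6, 56.9 and 41.3 CPM under i-BET151. Its log2 difference under i-BET858 was -0.39 (edgeR adjusted p = 0.0635, and 0.0117 with the replicate block). At 24 h the BRD7 libraries had 63.1, 62.6 and 36.8 CPM, 56.6, 62.3 and 37.2 CPM and 67.8, 63 and 49.5 CPM in the same order of treatments, and replicate 3 was the lowest in each group. In total 3603 exon bases of BRD7 lie opposite other genes, chiefly ADCY7, and the strand setting of the counting is not given. PHF10 (ENSG00000130024, chr6:169703902-169725566), which carries PHD fingers, had 45.5, 43.9 and 30 CPM under DMSO at 24 h, 27.8, 30.1 and 19.7 CPM under i-BET858 and 42.1, 39.9 and 34.8 CPM under i-BET151. PHF10 fell by 0.66 ± 0.19 under i-BET858 (edgeR adjusted p = 0.0148), although the highest i-BET858 library just exceeded the lowest DMSO library, and its 4 h values of 30.7, 42.7 and 37.3, 33.1, 29.7 and 31.5 and 29.3, 31.4 and 34 CPM overlapped. The PHF10 call was lost without DMSO replicates 1 or 2 or i-BET858 replicate 3 (adjusted p up to 0.0633).

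In non-canonical BAF, BICRAL and BRD9 fell in all 4 comparisons and BICRA under i-BET858 at 4 h. BICRAL (ENSG00000112624, chr6:42782052-42868558), one of the alternative scaffolds of this form, had 13.5, 14.5 and 20.3 CPM under DMSO, 5.0, 5.77 and 9.11 CPM under i-BET858 and 7.08, 6.8 and 7.53 CPM under i-BET151 at 4 h. After 24 h it had 16.8, 14.5 and 14.7 CPM under DMSO, 5.98, 5.28 and 5.32 CPM under i-BET858 and 6.42, 6.48 and 5.76 CPM under i-BET151. The treated and DMSO libraries did not overlap at either time. BICRAL fell by 1.27 ± 0.25 and 1.18 ± 0.25 at 4 h under i-BET858 and i-BET151 (edgeR adjusted p = 0.00253 and 0.00822). At 24 h it fell by 1.51 ± 0.15 and 1.33 ± 0.15 (edgeR adjusted p = 2.18e-05 and 8.50e-05), which made it the only member with a fall past 2-fold in all 4 comparisons.

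BICRA (ENSG00000063169, chr19:47608196-47703277), the alternative to BICRAL, had 11.2, 11.4 and 18.9 CPM under DMSO at 4 h, 4.38, 4.95 and 6.47 CPM under i-BET858 and 7.05, 7.67 and 12.9 CPM under i-BET151, with replicate 3 the highest in each group. The fall under i-BET858 was 1.39 ± 0.30 (edgeR adjusted p = 0.00435). With i-BET151 the log2 difference was -0.58 (edgeR adjusted p = 0.209), and with the replicate block, which takes out the level of replicate 3, it was -0.60 with an edgeR adjusted p = 0.00932. After 24 h the libraries had 10.9, 10.7 and 15.3 CPM, 12, 11.9 and 14 CPM and 11.8, 10.2 and 14.4 CPM under DMSO, i-BET858 and i-BET151. The 24 h groups overlapped, with 95% confidence intervals of the log2 difference of -0.43 to 0.42 for i-BET858 and -0.47 to 0.38 for i-BET151.

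BRD9 (ENSG00000028310, chr5:850291-892801), the bromodomain subunit of non-canonical BAF, fell modestly in all 4 comparisons. Its libraries had 66, 63.4 and 70.5 CPM under DMSO, 41.9, 35.1 and 44.4 CPM under i-BET858 and 45.2, 47.8 and 42.4 CPM under i-BET151 at 4 h, and 56.7, 62.9 and 54.4 CPM, 44.7, 46.5 and 44.9 CPM and 51, 48.7 and 45.6 CPM at 24 h. No treated library reached the lowest DMSO library of its time. The falls at 4 h were 0.72 ± 0.13 under i-BET858 and 0.57 ± 0.13 under i-BET151 (edgeR adjusted p = 0.00131 and 0.0109), and at 24 h 0.39 ± 0.093 and 0.28 ± 0.092 (edgeR adjusted p = 0.00588 and 0.0377). The last of these, i-BET151 at 24 h, was lost without DMSO replicates 1 or 2, i-BET151 replicates 1, 2 or 3 or i-BET858 replicates 1, 2 or 3 (adjusted p up to 0.159), and with no filter on low counts, with only the 2 groups compared or with all 18 libraries in 1 fit.

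Canonical BAF showed falls of its ARID1 subunits and a rise of DPF3. ARID1A (ENSG00000117713, chr1:26693236-26782104), the DNA-binding subunit most often mutated in this family, had 141, 139 and 195 CPM under DMSO at 4 h, 56.1, 66.6 and 82.2 CPM under i-BET858 and 90, 82.1 and 125 CPM under i-BET151. All treated libraries lay under the DMSO libraries, and replicate 3 was the highest in each group. The fall was 1.21 ± 0.20 under i-BET858 (edgeR adjusted p = 0.000907) and 0.68 ± 0.20 under i-BET151 (edgeR adjusted p = 0.0392). The i-BET151 call was lost without DMSO replicates 1, 2 or 3, i-BET151 replicates 1 or 2 or i-BET858 replicate 2 (adjusted p up to 0.143). At 24 h the libraries had 131, 119.7 and 123 CPM under DMSO, 96.8, 83.8 and 101 CPM under i-BET858 and 96.2, 98.7 and 124 CPM under i-BET151. ARID1A fell by 0.45 ± 0.12 under i-BET858 (edgeR adjusted p = 0.0136), a call lost without i-BET858 replicate 2 (adjusted p up to 0.0575), and with all 18 libraries in 1 fit. For i-BET151 the edgeR adjusted p was 0.149, and 0.0381 with the replicate block.

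ARID1B (ENSG00000049618, chr6:156776020-157210779), the alternative to ARID1A, had 43.3, 53.8 and 57.4 CPM under DMSO, 32.5, 33.3 and 50.5 CPM under i-BET858 and 36.6, 34.4 and 47 CPM under i-BET151 at 4 h, when the groups overlapped. Its log2 differences of -0.41 and -0.39 at 4 h did not pass, and did with the replicate block (edgeR adjusted p = 0.00695 and 0.0157) or without replicate 3 (edgeR adjusted p = 0.00895 and 0.0379). For i-BET858 the difference also passed with scaling to total counts or without i-BET858 replicate 3. At 24 h ARID1B had 54.8, 52.1 and 37.2 CPM under DMSO, 31.3, 28.7 and 32.4 CPM under i-BET858 and 34.3, 37.5 and 47.4 CPM under i-BET151. It fell by 0.68 ± 0.16 under i-BET858 (edgeR adjusted p = 0.00628), and under i-BET151 the difference was -0.29 (edgeR adjusted p = 0.192, and 0.000113 without replicate 3).

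The DPF genes encode alternative PHD finger subunits that read acetylated histone tails. DPF3 (ENSG00000205683, chr14:72609034-72894101) had 3, 9 and 2 counts in the DMSO libraries at 4 h, 60, 119 and 41 counts under i-BET858 and 63, 80 and 90 counts under i-BET151. After 24 h it had 6, 2 and 0 counts under DMSO, 86, 48 and 71 counts under i-BET858 and 90, 58 and 14 counts under i-BET151. DPF3 was thus close to the limit of detection without drug, and every treated library held more counts than any DMSO library. Scaled to library size, the summed counts were 17.4-fold higher under i-BET858 (95% exact binomial interval 10.2 to 32.4, counting error only) and 18.7-fold higher under i-BET151 (10.9 to 34.7) at 4 h. At 24 h the ratios were 20.8 (10.3 to 48.8) and 17.6 (8.73 to 41.5). These ratios rest on 14 DMSO counts at 4 h, 9 of them in replicate 2, and on 8 at 24 h, 6 of them in replicate 1. Their sizes therefore depend on single DMSO libraries. The rise passed in all 4 comparisons, with edgeR adjusted p = 0.000333 and 0.000759 at 4 h and 0.00248 and 0.00468 at 24 h for i-BET858 and i-BET151. DPF3 met the filter on low counts only through its treated libraries, and all 4 calls were kept with no filter. Even so DPF3 stayed at 2.42 ± 1.38 CPM (mean ± SD) under i-BET858 at 4 h, against 47.8 ± 6.38 CPM for its relative DPF2.

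DPF2 and DPF1 did not pass in any comparison against DMSO in edgeR's test. With i-BET858 DPF2 had a log2 difference of -0.38 at 4 h and 0.28 at 24 h, and with the replicate block both passed (edgeR adjusted p = 0.0265 and 0.0303). DPF1 had -0.34 under i-BET858 at 24 h (edgeR adjusted p = 0.074, and 0.034 with the replicate block). BCL11A (ENSG00000119866, chr2:60450520-60554467), a zinc finger repressor known for silencing fetal globin genes, had 8.35, 11.1 and 13.3 CPM under DMSO, 6.53, 6.49 and 7.52 CPM under i-BET858 and 5.59, 7.56 and 5.0 CPM under i-BET151 at 4 h. After 24 h it had 12.7, 11.5 and 13.5 CPM, 6.2, 7.47 and 6.37 CPM and 10.2, 7.36 and 12.4 CPM. BCL11A was lower in all libraries of i-BET858 than in the DMSO libraries at both times. It fell by 0.66 ± 0.23 and 0.85 ± 0.23 under i-BET858 and i-BET151 at 4 h (edgeR adjusted p = 0.047 and 0.0269), and by 0.95 ± 0.20 under i-BET858 at 24 h (edgeR adjusted p = 0.00336). Both 4 h calls were lost without replicate 3 of every group (edgeR adjusted p = 0.0588 and 0.0838). The i-BET858 call at 4 h was also lost without DMSO replicates 2 or 3, i-BET151 replicate 1 or i-BET858 replicates 1, 2 or 3 (adjusted p up to 0.171), and with DESeq2 size factors, with no filter on low counts or with a minimum of 10 counts in every library, and the i-BET151 call without DMSO replicates 2 or 3 or i-BET151 replicates 1 or 3 (adjusted p up to 0.109). SS18, the gene fused in synovial sarcoma, and its relative SS18L1 belong to canonical and non-canonical BAF. SS18 rose by 0.47 ± 0.15 under i-BET151 at 24 h (edgeR adjusted p = 0.0376), a call lost without DMSO replicates 1 or 3, i-BET151 replicates 1 or 2 or i-BET858 replicates 1 or 2 (adjusted p up to 0.135), and with scaling to total counts, with only the 2 groups compared or with all 18 libraries in 1 fit. SS18L1 rose by 0.54 ± 0.19 under i-BET858 at 24 h (edgeR adjusted p = 0.0394), a call lost without DMSO replicates 2 or 3, i-BET151 replicate 2 or i-BET858 replicates 1 or 2 (adjusted p up to 0.128), and with scaling to total counts, with only the 2 groups compared or with all 18 libraries in 1 fit. With the replicate block SS18 also passed under i-BET858 and SS18L1 under i-BET151 at 24 h (edgeR adjusted p = 0.00347 and 0.00157).

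Of the subunits common to all forms, the main ATPase gave no change that passed with all libraries. SMARCA4 (ENSG00000127616, chr19:10960932-11079426), also called BRG1, had 165, 167 and 201 CPM under DMSO, 156, 143 and 208 CPM under i-BET858 and 152, 149.8 and 204 CPM under i-BET151 at 4 h. At 24 h it had 168, 178 and 147 CPM, 152, 151 and 158 CPM and 170.4, 168 and 184 CPM. Its groups overlapped in all 4 comparisons, and the 95% confidence intervals of its log2 differences were -0.44 to 0.31 and -0.46 to 0.29 at 4 h and -0.34 to 0.078 and -0.14 to 0.28 at 24 h for i-BET858 and i-BET151. Without replicate 3 the 24 h difference for i-BET858 was -0.22 and passed (edgeR adjusted p = 0.0132). SMARCA2 (ENSG00000080503, chr9:1980290-2193624), also called BRM and the alternative ATPase, had 43.7, 48.3 and 55.8 CPM under DMSO at 4 h, 72.1, 91.2 and 80.5 CPM under i-BET858 and 56.7, 50.7 and 72.5 CPM under i-BET151. SMARCA2 rose by 0.73 ± 0.16 under i-BET858 at 4 h (edgeR adjusted p = 0.00522). After 24 h it had 58.5, 53.7 and 42.8 CPM, 66.1, 53.5 and 74.9 CPM and 63.7, 66.1 and 65.4 CPM, log2 differences of 0.29 and 0.31 that did not pass (edgeR adjusted p = 0.125 and 0.112).

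SMARCD1, SMARCD2 and SMARCD3 are alternative subunits through which transcription factors contact the complex. SMARCD1 (ENSG00000066117, chr12:50085200-50100707), described here by library although its fold change lay just under the 1.5 set for such a description, and chosen after its values were seen, changed direction. It had 136, 124 and 134 CPM under DMSO, 86, 95 and 107 CPM under i-BET858 and 112, 118 and 143 CPM under i-BET151 at 4 h, and 120.3, 128 and 126 CPM, 179, 182 and 213 CPM and 175, 176 and 188 CPM at 24 h. With i-BET858 it was below all DMSO libraries at 4 h and above all at 24 h. SMARCD1 fell by 0.45 ± 0.13 at 4 h (edgeR adjusted p = 0.0214), a call lost without DMSO replicates 1 or 3 or i-BET858 replicates 1 or 2 (adjusted p up to 0.0814). At 24 h it rose by 0.58 ± 0.098 under i-BET858 and 0.51 ± 0.098 under i-BET151 (edgeR adjusted p = 0.000778 and 0.00252).

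SMARCD3 (ENSG00000082014, chr7:151238764-151277896), the relative best known from heart and muscle, had 13.4, 9.74 and 9.21 CPM under DMSO, 19.7, 13.3 and 18.6 CPM under i-BET858 and 15.3, 14.6 and 12.4 CPM under i-BET151 at 4 h, and 13.3, 12.1 and 17 CPM, 14.2, 13.8 and 15.7 CPM and 17.5, 14.9 and 16.8 CPM at 24 h. Its rise of 0.68 ± 0.21 under i-BET858 at 4 h (edgeR adjusted p = 0.0276) was lost without replicate 3 of every group (edgeR adjusted p = 0.0776), with scaling to total counts, and without DMSO replicates 2 or 3 or i-BET858 replicates 1 or 3 (adjusted p up to 0.105). In addition 1973 of its exon bases lie opposite other genes, chiefly CHPF2. SMARCD2 fell by 0.28 ± 0.089 under i-BET151 at 24 h (edgeR adjusted p = 0.0336), a call lost without DMSO replicates 1, 2 or 3, i-BET151 replicates 2 or 3 or i-BET858 replicate 1 (adjusted p up to 0.109), and with no filter on low counts or with only the 2 groups compared.

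The BCL7 proteins are small subunits of the module that binds the nucleosome. BCL7A (ENSG00000110987, chr12:122019422-122062044) had 38, 39 and 44.7 CPM under DMSO, 15.4, 20.3 and 15.5 CPM under i-BET858 and 21.7, 28.2 and 30.9 CPM under i-BET151 at 4 h, and 34.5, 34 and 40.8 CPM, 28.9, 27.6 and 25.2 CPM and 35.1, 33.2 and 36.9 CPM at 24 h. BCL7A fell by 1.25 ± 0.17 and 0.59 ± 0.17 at 4 h under i-BET858 and i-BET151 (edgeR adjusted p = 0.000274 and 0.0366), and by 0.46 ± 0.12 at 24 h under i-BET858 (edgeR adjusted p = 0.0088). The i-BET151 call at 4 h was lost without DMSO replicates 1, 2 or 3 or i-BET151 replicates 1 or 2 (adjusted p up to 0.155). BCL7C (ENSG00000099385, chr16:30833626-30894302) went the other way in time, with 11.5, 11.2 and 8.74 CPM under DMSO, 17.9, 13 and 14 CPM under i-BET858 and 16.2, 14.1 and 14 CPM under i-BET151 at 4 h, and 13.6, 12.9 and 13.8 CPM, 8.05, 9.61 and 4.8 CPM and 7.95, 9.61 and 9.02 CPM at 24 h. The treated BCL7C libraries lay above DMSO at 4 h and below it at 24 h. The 4 h log2 differences of 0.52 and 0.49 did not pass (edgeR adjusted p = 0.0527 and 0.0982) and did with the replicate block (edgeR adjusted p = 0.00977 and 0.018). The fall at 24 h was 0.88 ± 0.23 under i-BET858 (edgeR adjusted p = 0.00923). With i-BET151 the 24 h difference was -0.63 (edgeR adjusted p = 0.0537, and 0.0196 with the replicate block). BCL7B fell by 0.45 ± 0.14 under i-BET858 at 4 h (edgeR adjusted p = 0.029), a call lost without DMSO replicates 1 or 3 or i-BET858 replicates 1, 2 or 3 (adjusted p up to 0.0943), and with no filter on low counts. At 24 h its difference under i-BET858 was 0.25 (edgeR adjusted p = 0.131, and 0.0423 with the replicate block).

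Among the core subunits beside the ATPase, SMARCB1, SMARCC1 and SMARCC2 fell under i-BET858 at 24 h. SMARCB1 (ENSG00000099956, chr22:23786931-23838009), the tumour suppressor lost in rhabdoid tumours, had 151, 127 and 144 CPM under DMSO, 126, 82.4 and 122 CPM under i-BET858 and 137, 135 and 130.0 CPM under i-BET151 at 4 h, and 135, 130.4 and 143 CPM, 101, 111 and 117 CPM and 125, 109.7 and 129 CPM at 24 h. SMARCB1 fell by 0.35 ± 0.11 under i-BET858 at 24 h (edgeR adjusted p = 0.0205), a call lost without DMSO replicate 3 or i-BET858 replicate 1 (adjusted p up to 0.0904), and with no filter on low counts or with all 18 libraries in 1 fit. At 4 h the difference under i-BET858 was -0.35 (edgeR adjusted p = 0.116, and 0.0129 with the replicate block). Of its 16526 exon bases 2923 lie opposite DERL3, and the strand setting of the counting was not given in the sources used here. The scaffold genes SMARCC1 and SMARCC2 fell by 0.37 ± 0.12 and 0.42 ± 0.12 under i-BET858 at 24 h (edgeR adjusted p = 0.0242 and 0.0141). The SMARCC1 call was lost without DMSO replicate 3 or i-BET858 replicates 1 or 2 (adjusted p up to 0.094), and with all 18 libraries in 1 fit, and the SMARCC2 call without DMSO replicate 1 or i-BET858 replicate 3 (adjusted p up to 0.071). With the replicate block SMARCC2 also passed at 4 h (edgeR adjusted p = 0.00457 under i-BET858 and 0.0193 under i-BET151). ACTL6A, the actin-like subunit, had log2 differences between -0.054 and 0.052 in the 4 comparisons. ACTB had 4540.0 ± 957 CPM (mean ± SD) under DMSO and 6725 ± 1682 CPM under i-BET858 at 4 h, a log2 difference of 0.57 (edgeR adjusted p = 0.0533, 7.77e-07 with the replicate block, and DESeq2 adjusted p = 0.0299). With i-BET151 at 4 h it was 0.31 (edgeR adjusted p = 0.356, and 0.000478 with the block). SMARCE1 did not pass against DMSO with all libraries, with log2 differences from -0.71 to -0.13, and passed for i-BET151 at 24 h without replicate 3 (edgeR adjusted p = 0.0412).

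**Figure D2:**
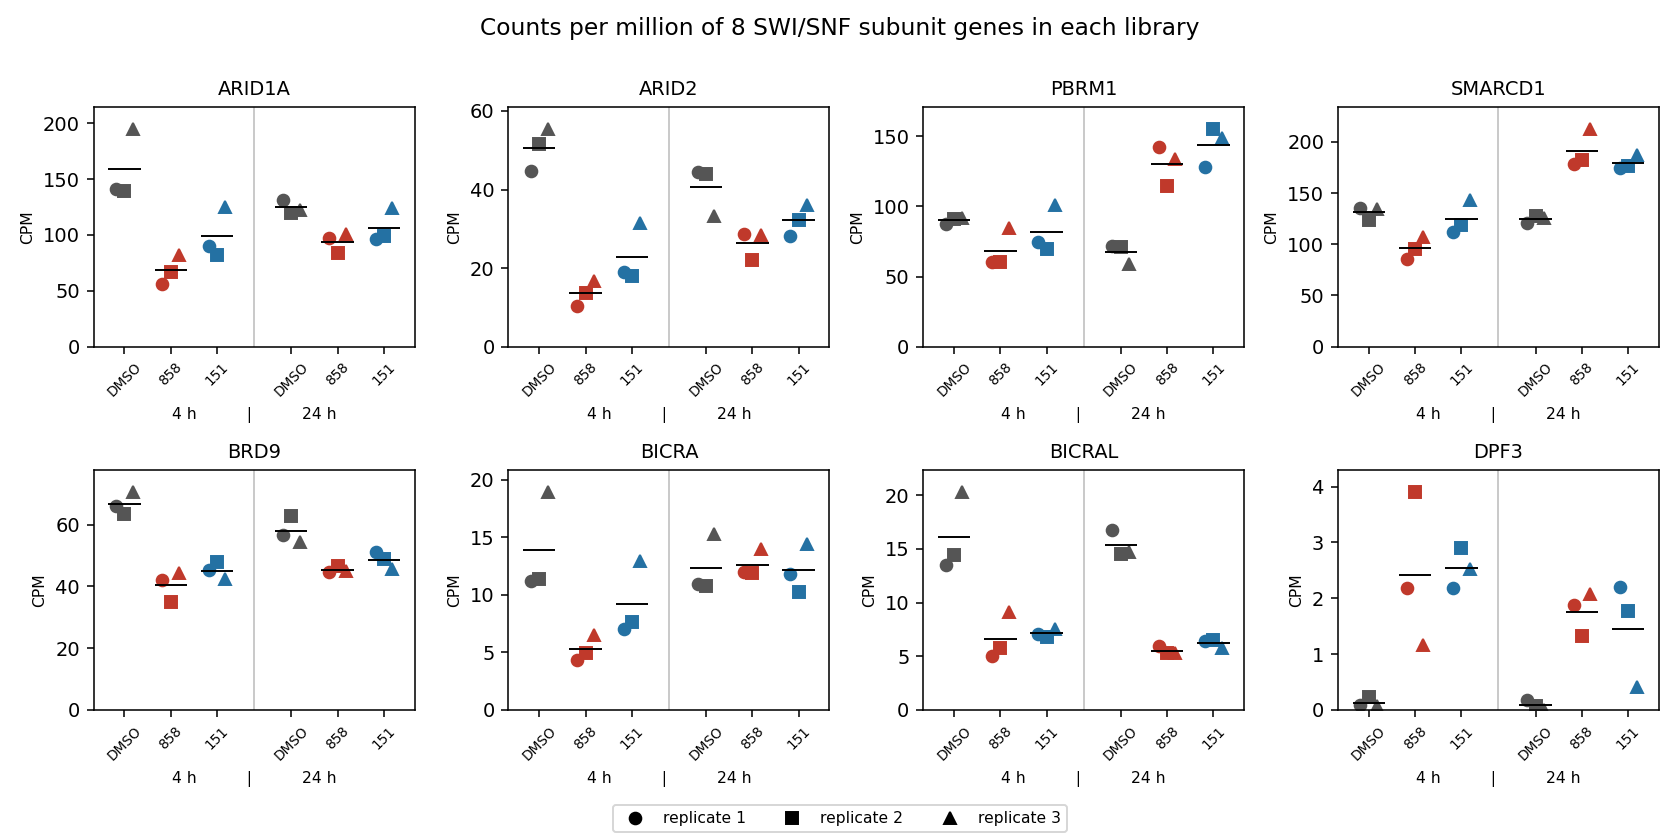
CPM (vertical axes, each starting at 0) of 8 members in each library (points, shaped by replicate number) by treatment and time, grey for DMSO, red for i-BET858 and blue for i-BET151, with the mean of each group as a short black line. ARID2, ARID1A and BICRA lie lowest under i-BET858 at 4 h, BICRAL stays low at both times, PBRM1 and SMARCD1 lie above DMSO at 24 h, and DPF3 is near 0 under DMSO alone.

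To place these transcripts in the genome, the 250 bases before the RefSeq start site (GRCh38.p14) were read for the 26 members that matched the promoter table. Their promoters were rich in CpG, with a median of 30 CpG per 250 bases (16 to 44) against 11 over all 34943 promoters. That background holds every distinct record, whether or not its gene was expressed here, while each member gave a single record. The sets are therefore unlike, and the contrasts were not tested. For DPF1 the record starts 5473 bases from the canonical start. A GC box (GGGCGG or CCGCCC) stood in 20 of 26 (76.9%) against 42.5% of all promoters, a CCAAT box (CCAAT or ATTGG) in 8 (30.8% against 32.0%), the E-box CACGTG in 3 (11.5% against 6.32%) and the ETS core (CGGAAG or CTTCCG) in 5 (19.2% against 16.4%). No member promoter held TATAAA or its reverse complement TTTATA, which 10.8% of all promoters held. Such matches describe letters and do not show binding. The 6 promoters below belong to ARID1A, BICRA and BICRAL, 3 of the 5 members that fell past 2-fold under i-BET858 at 4 h, to PBRM1 and SMARCD1, which rose at 24 h with both drugs, and to DPF3, which rose in all 4 comparisons. Capitals mark GC boxes, CCAAT boxes and CACGTG on either strand, and each sequence runs 5′ to 3′ towards the start site. ARID1A lies at chr1:26695765-26696014 on the plus strand, BICRA at chr19:47608884-47609133 (plus), BICRAL at chr6:42781802-42782051 (plus), PBRM1 at chr3:52685914-52686163 (minus), SMARCD1 at chr12:50085092-50085341 (plus) and DPF3 at chr14:72894102-72894351 (minus).
ARID1A: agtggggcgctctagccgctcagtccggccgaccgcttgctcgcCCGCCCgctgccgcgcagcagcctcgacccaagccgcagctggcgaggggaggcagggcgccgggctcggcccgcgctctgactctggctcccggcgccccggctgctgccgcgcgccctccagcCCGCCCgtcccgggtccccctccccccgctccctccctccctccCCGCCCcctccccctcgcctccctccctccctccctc
BICRA: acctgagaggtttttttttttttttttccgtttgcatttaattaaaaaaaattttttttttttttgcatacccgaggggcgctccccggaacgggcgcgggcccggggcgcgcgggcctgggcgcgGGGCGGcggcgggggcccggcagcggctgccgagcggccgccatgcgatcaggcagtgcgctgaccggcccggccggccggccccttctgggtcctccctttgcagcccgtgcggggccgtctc
BICRAL: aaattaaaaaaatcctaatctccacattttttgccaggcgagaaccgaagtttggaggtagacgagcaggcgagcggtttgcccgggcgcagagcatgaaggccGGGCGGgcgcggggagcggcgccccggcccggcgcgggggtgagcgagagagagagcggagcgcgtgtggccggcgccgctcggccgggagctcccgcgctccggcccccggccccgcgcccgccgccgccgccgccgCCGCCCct
PBRM1: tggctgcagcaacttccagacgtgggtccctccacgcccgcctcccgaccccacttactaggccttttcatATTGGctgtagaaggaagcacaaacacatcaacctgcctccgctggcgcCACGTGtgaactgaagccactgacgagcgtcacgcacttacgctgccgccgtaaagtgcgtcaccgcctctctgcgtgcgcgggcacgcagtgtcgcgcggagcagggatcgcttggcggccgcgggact
SMARCD1: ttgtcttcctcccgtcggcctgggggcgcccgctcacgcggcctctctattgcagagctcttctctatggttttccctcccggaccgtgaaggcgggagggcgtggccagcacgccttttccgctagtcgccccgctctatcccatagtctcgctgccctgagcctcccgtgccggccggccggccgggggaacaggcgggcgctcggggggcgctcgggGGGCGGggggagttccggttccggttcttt
DPF3: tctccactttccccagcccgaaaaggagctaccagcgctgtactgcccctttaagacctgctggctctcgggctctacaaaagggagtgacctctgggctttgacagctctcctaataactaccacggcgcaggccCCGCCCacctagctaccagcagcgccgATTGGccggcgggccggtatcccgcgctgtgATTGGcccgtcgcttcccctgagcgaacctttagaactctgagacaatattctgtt
Of the 5 members that fell past 2-fold under i-BET858 at 4 h, ARID1A held 3 GC boxes, BICRAL and BCL7A 2 each and BICRA 1, and ARID2 was not matched in the table. SMARCD1 held 1 GC box. PBRM1 held no GC box, 1 CCAAT box and 1 CACGTG, and DPF3 held 1 GC box and 2 CCAAT boxes with only 16 CpG, the lowest number among the members and shared with SMARCB1 and ACTL6B.

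Whether a drug effect differed between 4 and 24 h was tested as the drug-by-time interaction in all 18 libraries. With i-BET858 the effect differed for 9 of 29 members (background 27.2%), 8 with a higher log2 fold change at 24 h and 1 with a lower one (14.6% and 12.6% of all genes). At least 2-fold differences were 5 (background 15.1%). ARID2 (interaction 1.28 ± 0.29, edgeR adjusted p = 0.00336), BICRA (1.43 ± 0.36, edgeR adjusted p = 0.00681), ARID1A (0.81 ± 0.25, edgeR adjusted p = 0.0198) and BCL7A (0.83 ± 0.21, edgeR adjusted p = 0.00571) were low at 4 h and closer to DMSO at 24 h. PBRM1 (1.35 ± 0.22, edgeR adjusted p = 0.000199), SMARCD1 (1.07 ± 0.16, edgeR adjusted p = 8.00e-05), BCL7B (0.74 ± 0.18, edgeR adjusted p = 0.0046) and DPF2 (0.70 ± 0.20, edgeR adjusted p = 0.0132) went from a negative to a positive log2 fold change. BCL7C did the opposite (-1.36 ± 0.30, edgeR adjusted p = 0.00226). BICRAL, by contrast, had an interaction of -0.20 ± 0.29 (95% confidence interval -0.81 to 0.42, edgeR adjusted p = 0.678). The ARID1A interaction was lost without DMSO 4 h replicate 3 or i-BET858 4 h replicate 1 (adjusted p up to 0.0597).

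With i-BET151 the interaction passed for 4 members (background 13.8%, 6.99% higher and 6.82% lower), 2 of them by at least 2-fold (background 6.7%): PBRM1 (1.23 ± 0.22, edgeR adjusted p = 0.00129), SMARCD1 (0.60 ± 0.16, edgeR adjusted p = 0.0155), BCL7C (-1.10 ± 0.30, edgeR adjusted p = 0.0193) and SMARCD2 (-0.38 ± 0.12, edgeR adjusted p = 0.048). The BCL7C call was lost without DMSO 4 h replicate 3, i-BET151 24 h replicate 1 or i-BET151 4 h replicate 1 (adjusted p up to 0.0547), and the SMARCD2 call without DMSO 24 h replicates 1, 2 or 3, DMSO 4 h replicates 1, 2 or 3, i-BET151 24 h replicates 2 or 3, i-BET151 4 h replicates 1 or 2 or i-BET858 24 h replicates 1, 2 or 3 (adjusted p up to 0.117), and with scaling to total counts or with no filter on low counts. The number of calls fell to 2 without DMSO 4 h replicate 3 or i-BET151 4 h replicate 1, where 10.4% and 9.53% of all genes passed. The replicate block raised the counts to 15 and 8 members (backgrounds 38.3% and 25.2%). For i-BET858 the block added SMARCD2, SMARCD3, ACTB, DPF1, SS18 and SS18L1 (edgeR adjusted p from 0.00362 to 0.0429). For i-BET151 it added ACTB, BCL7A, ARID1A and ARID2 (edgeR adjusted p from 0.0174 to 0.045). Without replicate 3 the counts were 12 and 7 (40.6% and 26.3%), with SMARCA2, ACTB and DPF1 added for i-BET858 and BCL7A, ARID2 and BICRA for i-BET151.

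**Figure D3:**
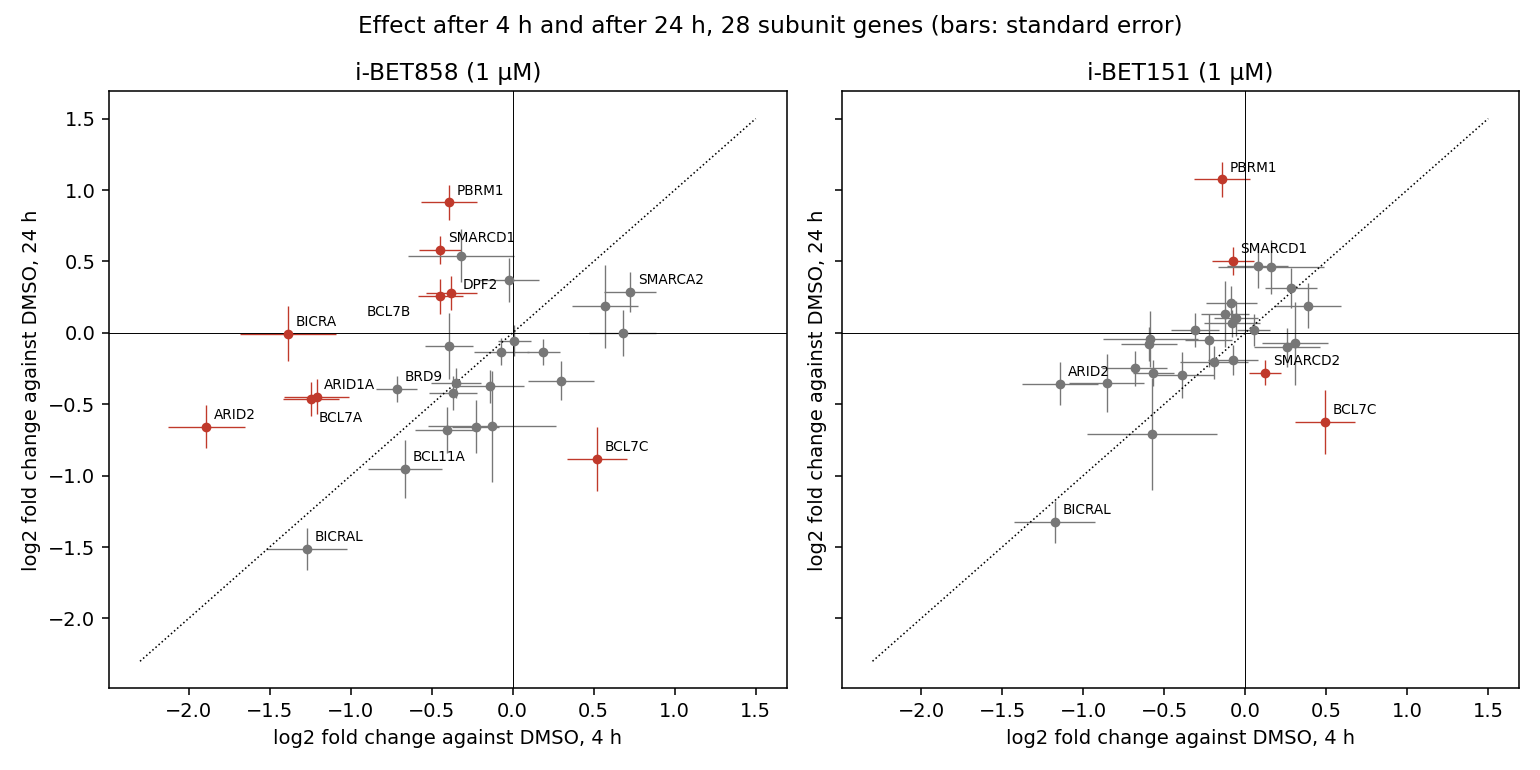
The log2 fold change against DMSO after 4 h (horizontal) and after 24 h (vertical) for 28 members, with standard errors, for i-BET858 (left) and i-BET151 (right). DPF3 is left out because it lies above 4 on both axes. Red points passed the interaction test, the dotted line marks equal effects, and PBRM1 and SMARCD1 lie above the line for both drugs while BCL7C lies below it.

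The drugs were compared directly at the same dose and times. No member passed at 4 h, where 0.971% of all genes did, or at 24 h, where 0.21% did (edgeR adjusted p). At an unadjusted p under 0.05 there were 7 members at 4 h and 5 at 24 h (backgrounds 11.9% and 11.4%). DESeq2 called 2 at 4 h, BCL7A and ARID2 (DESeq2 adjusted p = 0.0168 and 0.0486), and 1 at 24 h, SMARCC2 (DESeq2 adjusted p = 0.0287), with backgrounds of 4.43% and 3.14%. With the replicate block 8 members passed at 4 h and 2 at 24 h (backgrounds 9.63% and 4.37%), and without replicate 3 the counts were 0 and 2 (2.29% and 7.29%). At 4 h these were ARID2, BICRA, BCL7A, ARID1A, BCL7B and SMARCD1, all lower under i-BET858, and SMARCA2 and ACTB, both higher under i-BET858 (edgeR with block, adjusted p from 0.00287 to 0.0408). At 24 h they were SMARCC2 and PHF10, both lower under i-BET858 (edgeR with block, adjusted p = 0.021 and 0.00849), and the same 2 genes passed without replicate 3 (edgeR adjusted p = 0.0374 and 0.00625).

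At 4 h ARID2 differed by -0.75 (95% confidence interval -1.26 to -0.23, i-BET858 against i-BET151 on the log2 scale, edgeR adjusted p = 0.182), and the highest i-BET858 library lay below the lowest i-BET151 library. BICRA differed by -0.80 (-1.45 to -0.15), BCL7A by -0.65 (-1.03 to -0.27), ARID1A by -0.53 (-0.97 to -0.089) and SMARCA2 by 0.44 (0.092 to 0.80). At 24 h PHF10 differed by -0.61 (-1.01 to -0.20) and SMARCC2 by -0.44 (-0.70 to -0.18). SMARCD1 and BCL7B at 4 h differed by -0.37 (-0.66 to -0.086) and -0.39 (-0.69 to -0.085), and at 24 h BCL7A by -0.38 (-0.64 to -0.12), ARID1B by -0.38 (-0.74 to -0.029) and BCL11A by -0.60 (-1.05 to -0.15). These 12 intervals exclude 0 before adjustment for the number of genes. BICRAL differed by -0.096 (-0.64 to 0.45) at 4 h and -0.19 (-0.51 to 0.14) at 24 h, and PBRM1 by -0.16 (-0.43 to 0.10) at 24 h. SMARCD1 at 24 h differed by 0.075 (-0.14 to 0.29). The interval for DPF3 was wide, -1.12 to 0.99 at 4 h and -1.25 to 1.76 at 24 h, so that a 2-fold difference in either direction lay within the interval at 24 h.

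**Figure D4:**
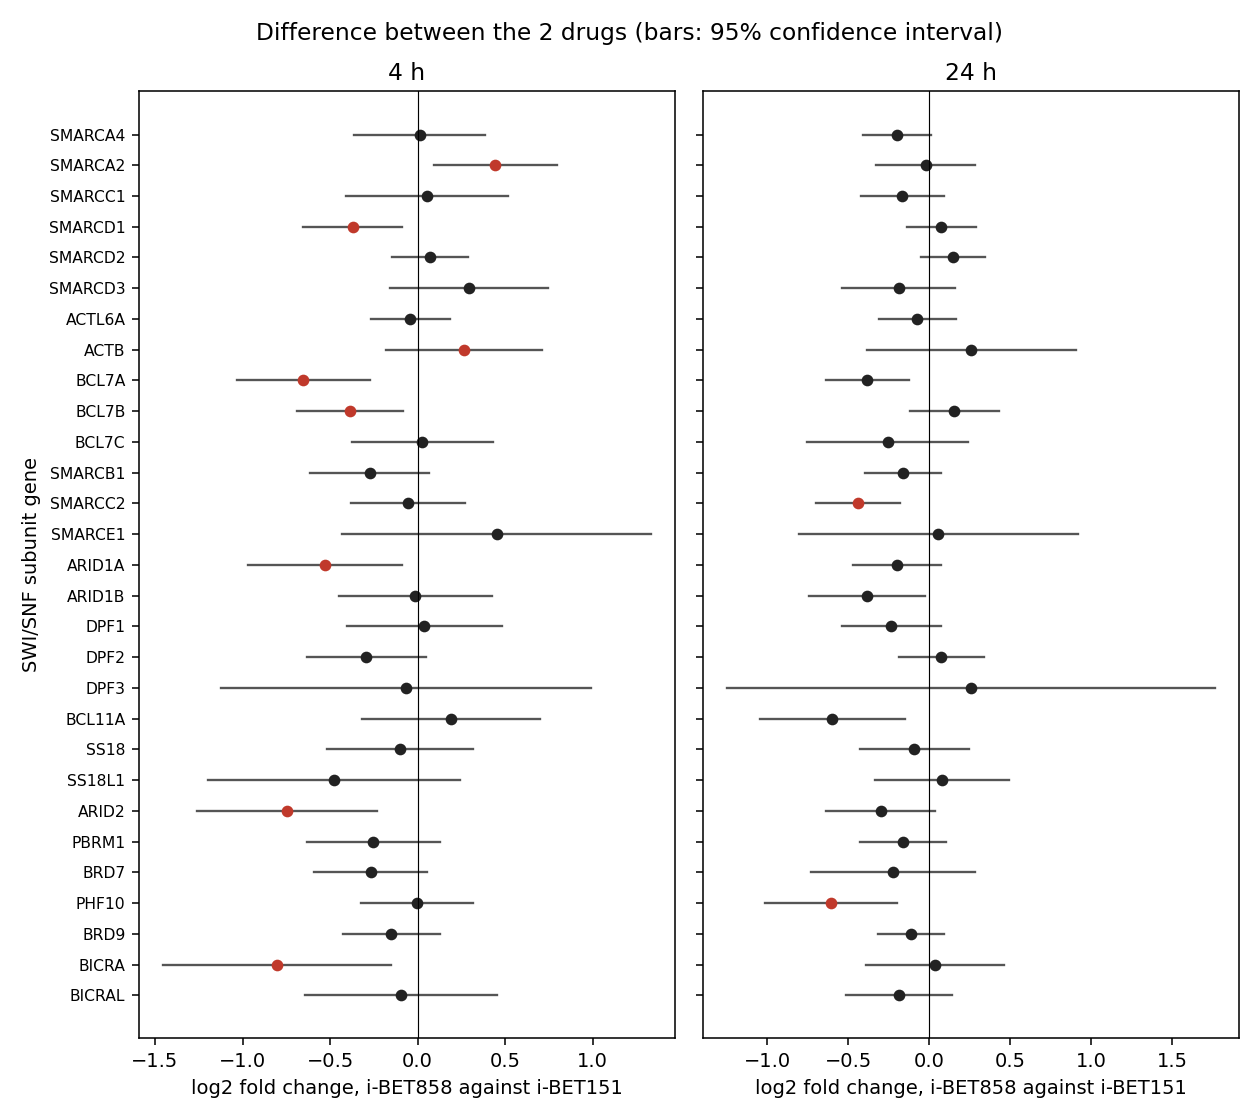
The log2 fold change of i-BET858 against i-BET151 for each tested member (rows) at 4 h (left) and 24 h (right), with 95% confidence intervals from edgeR. Red points had an adjusted p under 0.05 with the replicate block, which 8 members reached at 4 h and 2 at 24 h.

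For subunits that fill the same place in the complex, the share of each transcript was computed per exon length, as a description without a test. SMARCA2 made up 17.8, 19.1 and 18.4% of ATPase transcripts in the DMSO libraries at 4 h, 27.4, 34.3 and 24% under i-BET858 and 23.4, 21.7 and 22.5% under i-BET151, so that all treated libraries lay above all DMSO libraries while SMARCA4 remained the main ATPase transcript throughout. After 24 h the SMARCA2 share was 20.4% ± 1.57 (SD, n = 3) under DMSO, 25.5% ± 2.84 under i-BET858 and 23.4% ± 0.901 under i-BET151. Of the ARID1A, ARID1B and ARID2 transcripts, ARID2 held 26.9, 29.5 and 24.9% under DMSO at 4 h, 16.6, 18.3 and 17.6% under i-BET858 and 19.2, 19.8 and 22.3% under i-BET151. At 24 h the ARID2 shares overlapped at 26.9% ± 2.6, 24.4% ± 1.08 and 25.6% ± 1.18.

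SMARCD1 held 41.1, 40.7 and 43.2% of the SMARCD transcripts under DMSO at 4 h, 27.3, 32.7 and 32.9% under i-BET858 and 35, 36.6 and 42.3% under i-BET151, which overlapped DMSO. After 24 h the shares were 37, 38.8 and 37.3% for DMSO, 47.4, 47.7 and 53.6% for i-BET858 and 48, 50.5 and 52.7% for i-BET151, with all treated libraries above DMSO. BICRAL held 63.3, 60.4 and 52.1% of the pair BICRA and BICRAL under DMSO at 24 h, 35.9, 33.3 and 30% under i-BET858 and 38, 41.6 and 31% under i-BET151. At 4 h, when both genes fell under i-BET858, its share was 57% ± 2.13 under DMSO and 58.1% ± 2.79 under i-BET858. Under i-BET151 at 4 h it was 53.1, 49.9 and 39.5%, below the lowest DMSO library in each. The BCL7C share of the BCL7 transcripts was 13.9% ± 2.58 under DMSO and 26.7% ± 3.09 under i-BET858 at 4 h, and 17.5% ± 1.04 and 9.96% ± 3.35 at 24 h. The level of a share depends on the length used. With the length of the canonical transcript, which was chosen after seeing the data, the ARID2 share at 4 h was 20.2% ± 1.63 under DMSO and 11.9% ± 0.73 under i-BET858, and the BICRAL share at 24 h was 52.5% ± 5.95 and 27.8% ± 2.69. The BCL7C share was then 29.1, 30.1 and 22.1% under DMSO and 49.7, 42.4 and 44.5% under i-BET858 at 4 h. At 24 h the BCL7C share was 34.8, 32 and 32% and 22.7, 24.5 and 13%.

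**Figure D5:**
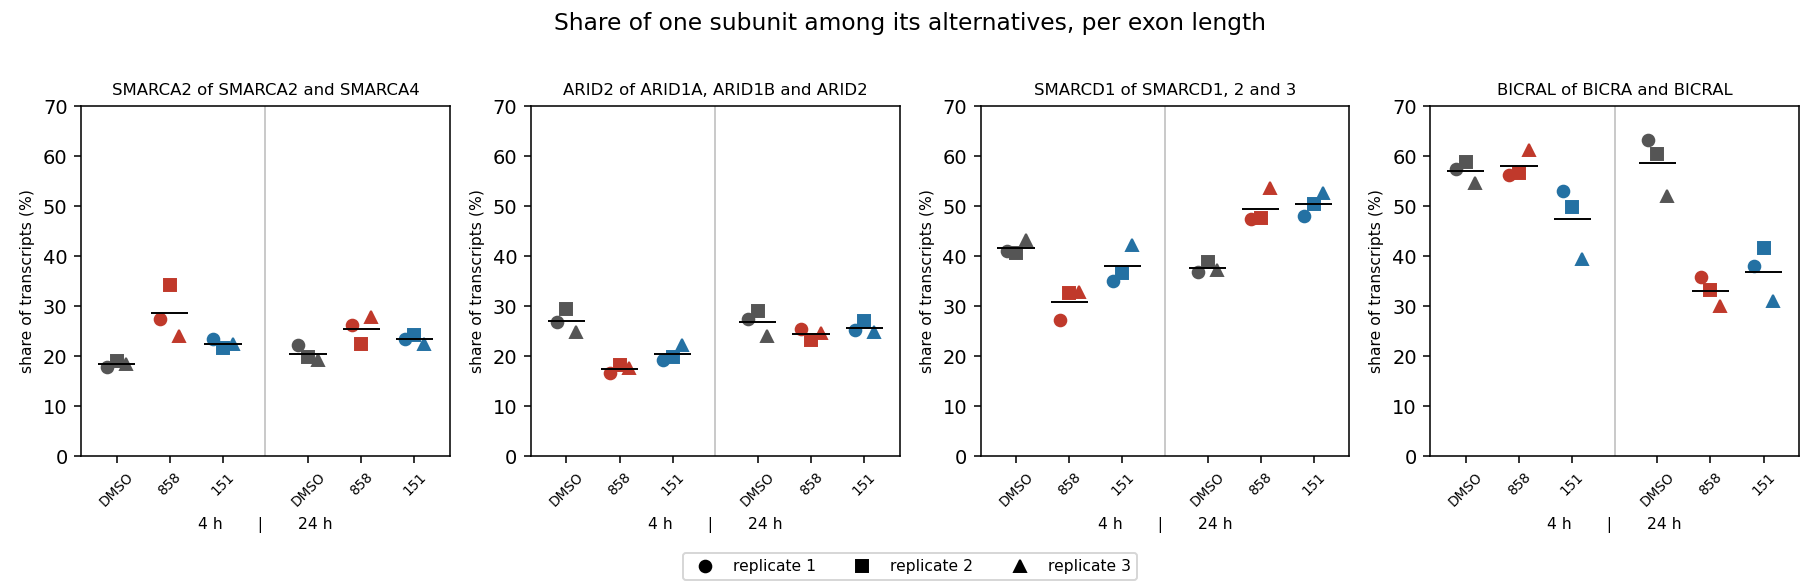
The share (percent, vertical axes from 0 to 70) of SMARCA2, ARID2, SMARCD1 and BICRAL among the transcripts of their alternatives in each library (points, shaped by replicate number), coloured grey for DMSO, red for i-BET858 and blue for i-BET151, with group means as short black lines. The ARID2 share is lower with both drugs at 4 h, and at 24 h the SMARCD1 share is higher and the BICRAL share lower than under DMSO in all treated libraries.

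The other chromatin remodelling families were counted for comparison, with 62 genes of the ISWI, CHD and NuRD, INO80, SRCAP and TIP60, and further SNF2 groups, of which 61 were tested at 4 h and 60 at 24 h. With i-BET858 at 4 h 26 were lower and 2 higher, with a median log2 fold change of -0.37, and under i-BET151 12 were lower and 0 higher, with a median of -0.24, where 30.8% and 16.2% of all genes passed. The SWI/SNF members, with medians of -0.35 and -0.08 in the same comparisons, were not tested against them. At 24 h 17 were lower and 10 higher under i-BET858 (median -0.12, background 41.7%), and 9 lower and 10 higher under i-BET151 (median -0.04, background 33.8%). With the replicate block the i-BET151 counts were 25 at 4 h and 33 at 24 h (backgrounds 32.7% and 45.9%). At 4 h under i-BET151, the count was 4 to 7 without DMSO replicates 1, 2 or 3 or i-BET151 replicates 1 or 2, where 9.44% to 10.9% of all genes passed. At 24 h under i-BET151 it was 12 without DMSO replicate 2 (background 24.7%). Named by size under i-BET858 at 24 h, MTA3 and CHD3, both of NuRD, fell by 1.51 ± 0.12 and 1.45 ± 0.20 (edgeR adjusted p = 6.37e-06 and 0.00020). BAZ1A, an ISWI partner, and ERCC6, a SNF2 ATPase of DNA repair, rose by 1.11 ± 0.31 and 1.06 ± 0.10 (edgeR adjusted p = 0.0152 and 2.21e-05). At 4 h under i-BET858 ERCC6 was lower by 0.55 ± 0.17 (edgeR adjusted p = 0.026) and MTA3 by 0.58 ± 0.16 (edgeR adjusted p = 0.018), BAZ1A was higher by 1.03 ± 0.26 (edgeR adjusted p = 0.0115), and the CHD3 difference was 0.34 ± 0.12 (edgeR adjusted p = 0.0567).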

How the data were processed

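Poly-A libraries of OVCAR-3 RNA were prepared and sequenced as paired-end reads by a service provider. The authors deposited raw STAR counts for each gene of GRCh38, without normalization. The annotation, versions and strand setting are not given in the sources used here. Table columns name treatment and replicate, and the time came from the table. STAR counts only uniquely assigned reads, so genes with near-identical copies or overlapping exons are uncertain.

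Symbols, positions and exon lengths came from GENCODE 44, which 58472 of 58825 identifiers (99.4%) matched. All 3 treatments of a time point entered 1 fit in edgeR 4.0.16 (R 4.3.3, TMM scaling, filterByExpr, quasi-likelihood test), with Benjamini-Hochberg adjustment over all genes tested. A gene passed at an adjusted p under 0.05. CPM used TMM-scaled library sizes. Interactions used all 18 libraries. P-values measure the spread between the 3 biological replicates of a single line.

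Values per library are given for members that passed and changed at least 1.5-fold against DMSO, and always for SMARCA4, SMARCA2, ARID1A, ARID1B, ARID2, PBRM1, BRD7, BRD9 and SMARCB1. Of the other remodellers, the 2 largest rises and the 2 largest falls with i-BET858 at 24 h are named if their mean log2 CPM reached 1. Members and lists were chosen with earlier results of these data known.

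Same-numbered replicates deviated together (correlations across genes of the deviations from group means, 0.13 to 0.34 at 4 h and 0.15 to 0.33 at 24 h, medians 0.27 and 0.26). Between other numbers they were -0.31 to 0.22 and -0.30 to 0.29, medians -0.20 and -0.23. The ranges overlapped and replicate 3 stood apart, so matching of replicates 1 and 2 by number was not shown. Blocked values are given where they change a call. Alternatives were DESeq2 1.42.0, scaling by its size factors or by total counts, every gene unfiltered, a minimum of 10 counts per library, the block, 2 groups only, all 18 libraries, leaving out replicate 3 or single libraries, and other lengths for shares. The tests were tried on simulated data.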

Additional observations from a re-analysis of the deposited data

Results flagged for a closer look

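The effect of a drug differed between 4 and 24 h (interaction in edgeR's quasi-likelihood test, adjusted p under 0.05) for the following members, given as the log2 fold change at 24 h minus that at 4 h. With i-BET858 the difference was 1.43 for BICRA, 1.35 for PBRM1, 1.28 for ARID2, 1.07 for SMARCD1, 0.83 for BCL7A, 0.81 for ARID1A, 0.74 for BCL7B, 0.70 for DPF2 and -1.36 for BCL7C. With i-BET151 it was 1.23 for PBRM1, 0.60 for SMARCD1, -0.38 for SMARCD2 and -1.10 for BCL7C. The PBRM1, SMARCD1 and BCL7C differences have the same sign with both drugs, which share their DMSO libraries. The groups hold 3 libraries each, so single libraries were not tested as outliers. What produces these differences was not tested.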

How the results depend on the processing

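Of 55 calls on members, 36 were kept under every alternative fit that gave a value, with the call rule itself unchanged, and no called direction reversed. DPF3 had no value when at least 10 counts were asked for in every library, since its DMSO libraries hold fewer. The replicate block changed the number of members called to 20 and 12 at 4 h (i-BET858 and i-BET151 against DMSO), to 8 and 2 between the drugs at 4 and 24 h, and to 15 and 8 for the interactions, and that of other remodellers with i-BET151 to 25 and 33 at 4 and 24 h. Of all genes, 45.4% and 32.7% then passed at 4 h, and 45.9% for i-BET151 at 24 h. Between the drugs it was 9.63% and 4.37%, and for the interactions 38.3% and 25.2%. The block removed no call on a member. Without replicate 3 of every group 18 members were called for i-BET151 at 24 h, 2 between the drugs at 24 h and 7 for the i-BET151 interaction, and 33 other remodellers for i-BET151 at 24 h. This setting called 54.2% of all genes for i-BET151 at 24 h, 7.29% between the drugs at 24 h and 26.3% for the i-BET151 interaction. DESeq2 called 2 and 1 members between the drugs at 4 and 24 h, a fit without a filter 3 and 1 (1.6% and 1.08% of all genes), and all 18 libraries in 1 fit 1 at 4 h (3.02%). Asking also for a 2-fold change left 6 and 3 members at 4 h, 2 and 3 at 24 h, 5 and 2 for the interactions, and 8, 3, 6 and 2 other remodellers (i-BET858 then i-BET151, 4 h then 24 h). The same rule was met by 14.1%, 7.1%, 18.8% and 13.7% of all genes in that order, and by 15.1% and 6.7% for the interactions. When each library was left out in turn, the number of members called lay between 4 and 7 for i-BET151 at 4 h and at 24 h (9.44% to 18.3% and 23.8% to 35.1% of all genes), between 8 and 14 for i-BET858 at 4 h (23.2% to 33.7%), between 13 and 17 at 24 h (32.7% to 44.9%), and between 2 and 5 for the i-BET151 interaction (8.45% to 14.3%), while 4 to 14 and 12 to 19 other remodellers were called for i-BET151 at 4 and 24 h. The cause of these shifts was not tested. Scaling to total counts moved the all-gene median of i-BET858 at 4 h from 0.02 to -0.14 and left the numbers of members and other remodellers called within 1.5 times. Over all genes, calls between the drugs went from 167 to 331 at 4 h and from 36 to 56 at 24 h.

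Shares depended on the length used. With no length correction the SMARCA4 share at 4 h was 78.3% with DMSO and 73.7% with i-BET151, the ARID2 share 19.5%, 11.2% and 14.0% (DMSO, i-BET858 and i-BET151), and the SMARCD1 share at 24 h 33.7%, 45.3% and 46.2%. With the canonical transcript length, added after seeing the data, they were 78.8% and 74.3% for SMARCA4, 20.2%, 11.9% and 14.6% for ARID2, 27.3%, 37.9% and 38.6% for SMARCD1, and 52.5%, 27.8% and 31.3% for BICRAL at 24 h. The order of the groups stayed as in the main setting.

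Only values that had not passed changed sign. The SMARCD3 difference with i-BET858 at 24 h was -0.0016, -0.081, -0.0018 and -0.0057 under DESeq2 size factors, total counts, DESeq2 and at least 10 counts in every library. BICRA with i-BET858 at 24 h was 0.023, 0.012, 0.11, 0.0040 and 0.036 with no filter, the replicate block, no replicate 3, 2 groups only and all 18 libraries, and SMARCA4 with i-BET151 at 24 h was -0.067 without replicate 3. With single libraries left out, the ranges were -0.25 to 0.037 for SMARCA4 with i-BET858 at 4 h, -0.24 to 0.017 for SMARCA4 with i-BET151 at 4 h, -0.11 to 0.19 for SMARCD3 with i-BET858 at 24 h, -0.14 to 0.034 for BCL7A with i-BET151 at 24 h, -0.28 to 0.12 for BRD7 with i-BET858 at 24 h, -0.066 to 0.25 for BRD7 with i-BET151 at 24 h, -0.20 to 0.050 for PHF10 with i-BET151 at 24 h, -0.10 to 0.21 for BICRA with i-BET858 at 24 h and -0.19 to 0.17 for BICRA with i-BET151 at 24 h. At this depth, the sizes of the differences of DPF3, SMARCE1 and other members with few counts are uncertain, although no alternative fit removed a DPF3 call.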
